A study of Homo sapiens with 6 samples.

Results

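The mRNAs of 10 plasma membrane amino acid transporters were followed in SK-N-BE(2) cells treated with NEN, against cells given the solvent DMSO. The 10 were taken by name, as carriers of the plasma membrane: SLC3A2, SLC7A5, SLC7A11, SLC43A1, SLC1A5, SLC1A4, SLC38A1, SLC38A2, SLC7A1 and SLC7A3. All 10 were found among the 35130 gene names of the series. NEN-treated cells received 1 µM NEN for 24 h, and the DMSO cells received DMSO for the same 24 h, in 3 libraries per group that the labels call biological replicates. SK-N-BE(2) is an established human neuroblastoma line with amplified MYCN. It is labelled with bone marrow as its tissue, and the cells of both groups grew in DMEM/F12 with 10% fetal bovine serum. The labels give NEN only by its abbreviation, which work on neuroblastoma uses for niclosamide ethanolamine, a mitochondrial uncoupler. One line and one dose at a single time limit what the groups can stand for.

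Amino acid transporters move amino acids across the plasma membrane by different mechanisms, and tumour cells depend on several at once. Light chains such as SLC7A5 and SLC7A11 reach the surface only when joined to the heavy chain SLC3A2, and they exchange one amino acid for another. Sodium-coupled carriers such as SLC38A1 and SLC38A2 achieve net uptake, and the glutamine they bring in can be exchanged for leucine, which feeds growth signalling through mTORC1. Several genes of the family are known targets of the stress factor ATF4. MYC and MYCN are known from other work to act on SLC7A5 and SLC1A5.

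Promoters of 8 of the 10 genes, 15 start sites in all, were found in RefSeq (build GRCh38.p14), each from 250 bases before to 50 after the start. The 4 shown are those of the members whose mRNA changed, each at the start site that held a match to a searched motif. Every sequence runs 5′ to 3′ in the direction of the gene. Capitals mark matches on either strand to the C/EBP-ATF composite element TGATGNAA, the E-box CACGTG or the antioxidant element TGACNNNGC.
SLC43A1 (chr11:57515653-57515952, minus strand): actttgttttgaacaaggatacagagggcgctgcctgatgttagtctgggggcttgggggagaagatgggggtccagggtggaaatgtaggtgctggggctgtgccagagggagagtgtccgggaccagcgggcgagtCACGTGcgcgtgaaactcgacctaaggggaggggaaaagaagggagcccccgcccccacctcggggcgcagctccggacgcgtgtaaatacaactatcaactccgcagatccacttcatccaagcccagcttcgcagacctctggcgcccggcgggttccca
SLC1A4 (chr2:64989149-64989448, plus strand): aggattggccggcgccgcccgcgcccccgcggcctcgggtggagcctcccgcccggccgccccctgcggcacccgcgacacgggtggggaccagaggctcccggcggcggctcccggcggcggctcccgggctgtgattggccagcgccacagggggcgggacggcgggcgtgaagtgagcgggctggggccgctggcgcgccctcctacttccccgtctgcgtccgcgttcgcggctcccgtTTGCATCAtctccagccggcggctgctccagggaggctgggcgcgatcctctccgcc
SLC38A1 (chr12:46266467-46266766, minus strand): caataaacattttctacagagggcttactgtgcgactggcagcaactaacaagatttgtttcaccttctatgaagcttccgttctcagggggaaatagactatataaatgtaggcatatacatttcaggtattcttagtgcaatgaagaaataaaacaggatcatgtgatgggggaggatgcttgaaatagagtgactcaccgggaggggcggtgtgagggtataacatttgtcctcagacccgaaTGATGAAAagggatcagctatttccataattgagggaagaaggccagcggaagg
SLC7A1 (chr13:29595639-29595938, minus strand): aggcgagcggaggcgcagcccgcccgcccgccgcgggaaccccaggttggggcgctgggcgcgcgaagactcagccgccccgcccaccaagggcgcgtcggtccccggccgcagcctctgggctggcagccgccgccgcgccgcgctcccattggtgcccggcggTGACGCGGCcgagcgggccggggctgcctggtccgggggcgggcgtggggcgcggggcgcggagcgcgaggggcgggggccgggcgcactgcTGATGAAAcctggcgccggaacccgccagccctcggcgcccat

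Counting the first transcribed base as 1, SLC1A4 held TTGCATCA, the composite element read on the other strand, from -7 to 1. SLC38A1 held TGATGAAA from -4 to 4 and SLC7A1 held TGATGAAA from 8 to 15. The composite element was thus present at a start site of SLC1A4, SLC38A1 and SLC7A1, which fell, the last with a call lost on leaving out any 1 library. It was also present for SLC3A2 and SLC1A5, which did not pass the test. SLC7A5 and SLC38A2 did not pass either, and they held no composite element. The other listed start sites of SLC1A4 and SLC38A1 held no match to any searched motif. No promoter was found for SLC7A11 and SLC7A3. The element was thus not particular to the members that fell, and no link between motif and direction was tested. SLC43A1, the member that rose, held no composite element at either of its 2 listed start sites and had an E-box from -112 to -107. In all, 5 of the 15 member promoters held the composite element, 3 the E-box and 4 the antioxidant element, beside 3.62%, 7.26% and 13.3% of the 35116 promoters in the table. The E-box reads the same on both strands, and no motif matches overlapped. A match is a description of the letters only, and gene-level values do not show which start site these cells used.

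NEN-treated cells had more mRNA of SLC43A1 and less of SLC1A4 and SLC38A1 than DMSO cells. SLC7A1 also passed as lower, but that call was lost in 11 of 15 alternative settings. SLC43A1, a facilitated carrier of leucine and other large neutral amino acids, averaged 8.93 ± 0.88 TPM in NEN cells and 4.30 ± 0.92 TPM in DMSO cells (SD, n = 3 each), a ratio of 2.08. SLC1A4, a carrier of alanine, serine and cysteine, averaged 8.05 ± 0.74 TPM in NEN cells and 12.6 ± 0.51 TPM in DMSO cells. SLC1A5 and SLC7A5, the most abundant members in both groups, and SLC3A2 differed by at most 1.10-fold between the groups, and none of them passed the test. TPM is a level scaled by transcript length and library total, so levels of different genes can be set side by side.

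Tests were run with limma on log2(TPM + 1) over the 12576 genes that averaged 1 TPM or more, with Benjamini-Hochberg adjustment over all of them and a threshold of 0.05. Fold changes are NEN minus DMSO on that log2 scale ± SE, which understates the change of low genes. SLC7A3 lay under the level filter, and of the 9 members tested 1 rose and 3 fell. Among all genes tested, 30.0% passed, with 13.5% higher and 16.5% lower in NEN cells, so 4 calls among 9 members (44.4%) are not read as particular to these transporters. The 3 NEN libraries lay wholly above or below the 3 DMSO libraries for 7 of the 9 members, beside 46.8% of all genes tested. The median fold change was 0.05 over the 9 members and -0.02 over all genes, and the median size of the change regardless of sign was 0.23 and 0.27. In bulk RNA, fewer cells of a kind that expresses a gene and less of its RNA per cell cannot be told apart.

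**Figure D1:**
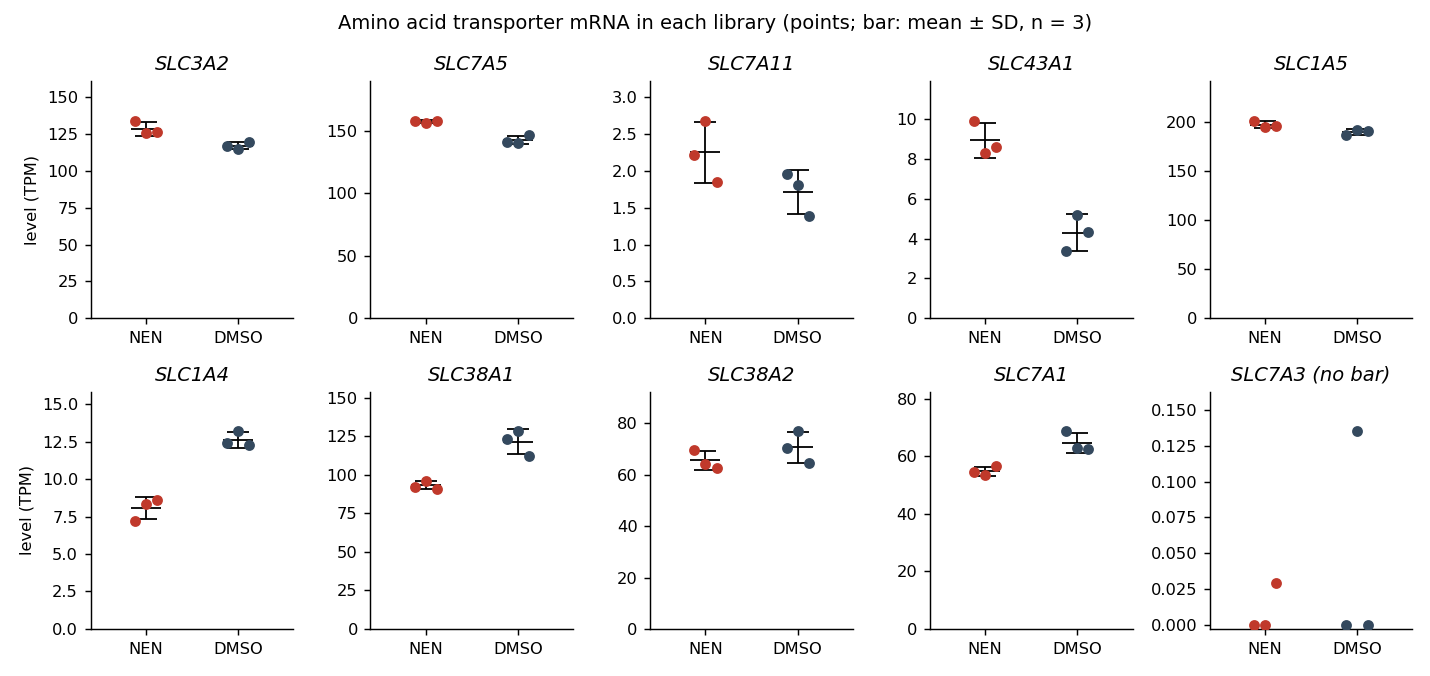
Level in TPM (vertical axis from 0, its own scale for each gene) of the 10 transporters in each of the 3 NEN and 3 DMSO libraries, with points for libraries and bars for mean ± SD. SLC43A1 lies between 8.28 and 9.93 TPM in NEN and between 3.36 and 5.21 TPM in DMSO libraries, and SLC7A3, shown as points alone, is at or near 0 in both groups.

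Depth is unknown, since TPM keeps no read counts, and the listed genes of each library sum to between 929054 and 933500 TPM. The label of the cells was checked on 10 sympathoadrenal markers such as HAND2 and DBH, all of which had a mean of at least 10 TPM. Their sum was 6219 to 6430 TPM in NEN libraries and 5259 to 6054 TPM in DMSO libraries. Of 6 blood markers, 5 had a mean below 1 TPM, and CD3E and HBB were at 0 in every library, although the labels give bone marrow as the tissue. The blood list summed to 15.2 to 17.2 TPM in NEN and 7.29 to 9.61 TPM in DMSO libraries, mostly CD68. CD68 alone averaged 16.2 ± 1.2 TPM in NEN cells and 8.37 ± 1.26 TPM in DMSO cells (limma adjusted p = 0.00344). The 5 epithelial markers summed to 5.55 to 12.9 TPM in NEN and 7.82 to 9.18 TPM in DMSO libraries, and the 3 endothelial markers, each averaging below 1 TPM, to 0.90 to 1.90 TPM in NEN and 0.69 to 1.12 TPM in DMSO libraries. The 7 stromal markers summed to 309.7 to 329.8 TPM in NEN and 359.4 to 407.2 TPM in DMSO libraries, mostly THY1, which averaged 287.9 ± 9.3 TPM in NEN cells and 366.3 ± 22.4 TPM in DMSO cells (adjusted p = 0.00599). PDGFRB of the same list went the other way, with 22.04 ± 2.54 TPM in NEN cells and 10.1 ± 2.1 TPM in DMSO cells (adjusted p = 0.00326). COL1A1, COL1A2, COL3A1, DCN and LUM of that list averaged only 0.60 to 2.42 TPM over the 6 libraries. Transcripts of mitochondrial DNA, taken as all names starting with MT-, took 7.49% to 8.56% of the summed TPM in NEN and 9.53% to 11.6% in DMSO libraries. Ribosomal protein mRNAs took 19.5% to 20.4% in NEN and 16.2% to 17.9% in DMSO libraries. The part of these differences in the transporter values was not tested.

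SLC3A2, the heavy chain that carries its partner light chains to the surface, had 134.3, 125.5 and 126.3 TPM in the NEN libraries, against 116.8, 114.8 and 119.7 TPM in the DMSO libraries. Its NEN libraries all lay above the DMSO libraries, by a small step. The fold change was 0.13 ± 0.05, with an unadjusted 95% interval of 0.01 to 0.26 and an adjusted p = 0.102. SLC7A5, the light chain known as LAT1, which takes up leucine in exchange for glutamine, had 158.0, 155.7 and 157.4 TPM in NEN libraries, against 140.6, 140.4 and 146.1 TPM in DMSO libraries. Again the groups did not overlap, and the step was of the same size as that of its heavy chain. The fold change was 0.14 ± 0.05 (interval 0.03 to 0.25, adjusted p = 0.0655). Median-ratio scaling gave 0.17 for SLC7A5 (adjusted p = 0.0522) and 0.16 for SLC3A2 (adjusted p = 0.0646). After quantile normalization both passed, SLC7A5 with 0.20 (adjusted p = 0.0194) and SLC3A2 with 0.21 (adjusted p = 0.0210). After correction for transcript length and GC content the values were 0.01 for SLC7A5 and 0.05 for SLC3A2, and neither passed. SLC7A5 has a pair of near copies, SLC7A5P1 and SLC7A5P2, with which reads can be shared. SLC7A5P1 averaged 3.12 ± 0.63 TPM in NEN cells and 4.51 ± 3.23 TPM in DMSO cells. SLC7A5P2 was listed at 4.41, 1.75 and 1.40 TPM in NEN libraries and at 0, 2.37 and 0 TPM in DMSO libraries. Both were far under SLC7A5 itself.

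SLC7A11, the light chain xCT, which imports cystine for glutathione synthesis and releases glutamate, was scarce. It had 2.22, 2.69 and 1.85 TPM in NEN libraries, against 1.95, 1.81 and 1.38 TPM in DMSO libraries, and the groups overlapped. Its fold change was 0.26 ± 0.20 with an interval of -0.22 to 0.73 (adjusted p = 0.375), so neither a moderate gain nor a small loss could be told from no change at this level. The ratio of SLC7A11 to SLC3A2 was 0.0175 ± 0.0035 in NEN cells and 0.0147 ± 0.0027 in DMSO cells. The ratio of SLC7A5 to SLC3A2 was 1.22 ± 0.04 in NEN cells and 1.22 ± 0.01 in DMSO cells, and both ratios overlapped between the groups.

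Summed over the 6 light chains that pair with SLC3A2 (SLC7A5, SLC7A6, SLC7A7, SLC7A8, SLC7A10 and SLC7A11), the ratio to the heavy chain was lower in every NEN library. It was 1.44, 1.48 and 1.47 in NEN libraries, against 1.68, 1.57 and 1.62 in DMSO libraries. Of the 6, SLC7A8 and SLC7A10 lay under the level filter and were not tested. SLC7A6, the light chain y+LAT2, which exchanges arginine for glutamine with sodium, was the only tested one that passed. It had 32.1, 24.9 and 26.0 TPM in NEN libraries, against 51.2, 36.9 and 45.6 TPM in DMSO libraries, a fold change of -0.66 ± 0.14 (adjusted p = 0.0130). The ratio of SLC7A6 to SLC7A5 was 0.176 ± 0.023 in NEN cells and 0.313 ± 0.051 in DMSO cells. No test was run on any ratio. Those of SLC7A6 to SLC7A5, SLC1A5 to SLC1A4, SLC38A1 to SLC38A2 and SLC7A1 to SLC7A2 were chosen after the values were seen.

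**Figure D2:**
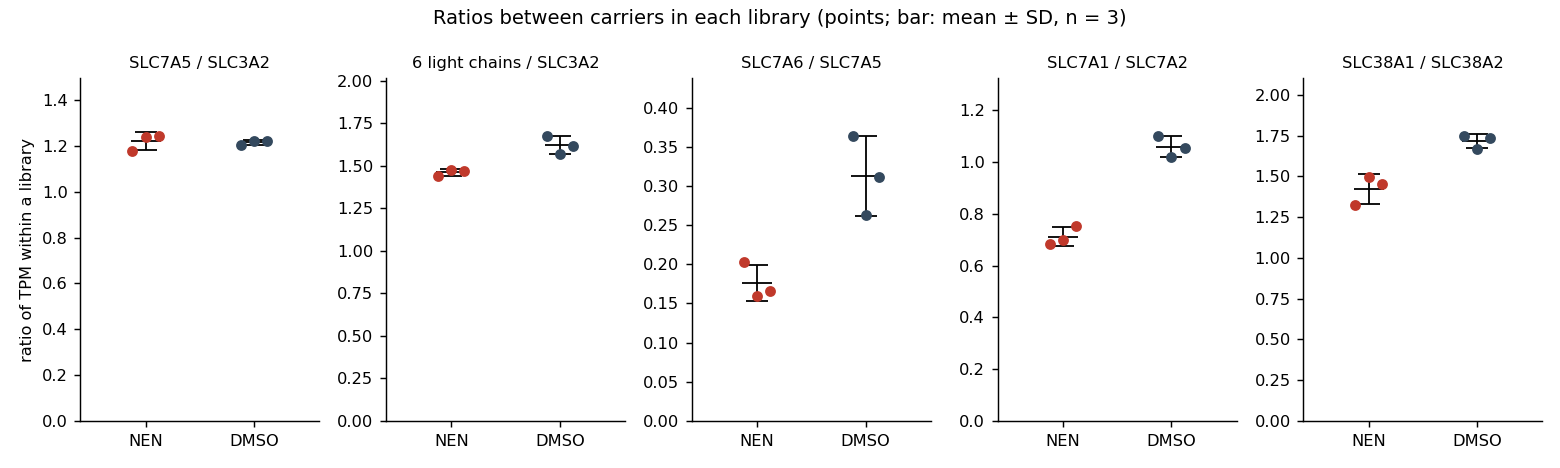
Ratio of TPM values within a library (vertical axis from 0) for 5 combinations of carriers in the 3 NEN and 3 DMSO libraries, with points for libraries and bars for mean ± SD. The ratio of SLC7A5 to SLC3A2 overlaps between groups, while the other 4 ratios are lower in every NEN library than in any DMSO library.

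SLC43A1, known as LAT3, carries leucine and other large neutral amino acids without a partner chain and without exchange. It had 9.93, 8.28 and 8.59 TPM in NEN libraries, against 3.36, 5.21 and 4.34 TPM in DMSO libraries. Every NEN library was higher than every DMSO library, and the gap between the groups was wider than the spread within either. The fold change was 0.92 ± 0.16 (interval 0.53 to 1.30, adjusted p = 0.00649), the largest of the 9 tested members. It passed under all 15 alternative settings, with fold changes between 0.59 and 1.05, the lowest of them with a pseudocount of 5. SLC43A2, its close relative LAT4, had 3.69 ± 0.27 TPM in NEN cells and 3.35 ± 0.40 TPM in DMSO cells, with a fold change of 0.11 ± 0.15 (adjusted p = 0.615).

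Centred log2(TPM + 1) values over the 6 libraries were compared between SLC43A1 and 7299 genes averaging 10 TPM or more. Clone-named and pseudogene-like names were left out, by a name pattern that also dropped some coding genes such as KEAP1. The 5 nearest to SLC43A1 among those compared were FLYWCH1, ARHGEF17, MXI1, TBC1D17 and PDCD4. The Euclidean distances were 0.171 for FLYWCH1, 0.243 for ARHGEF17, 0.243 for MXI1, 0.253 for TBC1D17 and 0.262 for PDCD4. MXI1, a MAX-binding repressor that opposes MYC proteins, averaged 28.9 ± 4.2 TPM in NEN cells and 13.6 ± 2.0 TPM in DMSO cells. FLYWCH1, the nearest, averaged 28.3 ± 3.1 TPM in NEN cells and 15.2 ± 2.3 TPM in DMSO cells. The 6 libraries hold only 2 conditions, so likeness here is mostly a rise of similar size.

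SLC1A5, known as ASCT2, exchanges glutamine for other neutral amino acids and was the most abundant member in both groups. It had 201.9, 195.0 and 195.9 TPM in NEN libraries, against 187.2, 191.9 and 191.5 TPM in DMSO libraries. The groups were apart by a narrow margin, and the fold change of 0.05 ± 0.05 had an interval of -0.05 to 0.16 (adjusted p = 0.414). Its sign turned after correction for length and GC content, to -0.03. SLC1A4, known as ASCT1, is a close relative that prefers alanine, serine and cysteine. It had 7.21, 8.34 and 8.59 TPM in NEN libraries, against 12.4, 13.2 and 12.3 TPM in DMSO libraries. All NEN libraries were lower, and the fold change was -0.59 ± 0.11 (interval -0.85 to -0.33, adjusted p = 0.00738), a call kept under all 15 alternatives. The ratio of SLC1A5 to SLC1A4 was 24.7 ± 2.8 in NEN cells and 15.1 ± 0.5 in DMSO cells.

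SLC38A1, the sodium-coupled carrier SNAT1, which brings in glutamine, had 92.3, 96.1 and 91.1 TPM in NEN libraries, against 123.5, 128.2 and 112.3 TPM in DMSO libraries. The lowest DMSO library stood well above the highest NEN library. The fold change was -0.38 ± 0.07 (interval -0.53 to -0.22, adjusted p = 0.00614), and the call was kept under all 15 alternatives, from -0.43 to -0.27. SLC38A2, the related SNAT2, whose synthesis cells raise when amino acids run short, had 69.8, 64.2 and 62.7 TPM in NEN libraries, against 70.5, 76.9 and 64.7 TPM in DMSO libraries. These groups overlapped, and the fold change was -0.11 ± 0.08 (interval -0.30 to 0.09, adjusted p = 0.369), or 0.02 after correction for length and GC content. The ratio of SLC38A1 to SLC38A2 was 1.42 ± 0.09 in NEN cells and 1.72 ± 0.04 in DMSO cells, with no overlap between libraries.

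SLC7A1, the arginine and lysine carrier CAT1, had 54.5, 53.5 and 56.6 TPM in NEN libraries, against 68.7, 62.8 and 62.4 TPM in DMSO libraries. Its libraries did not overlap, and it passed the test with a fold change of -0.23 ± 0.07 (adjusted p = 0.0364). That call rests on all 6 libraries together: it was lost on leaving out any 1 of them (adjusted p between 0.0596 and 0.110). It was also lost with the replicate block (0.0736), without a filter (0.0638), after median-ratio scaling (0.0594) or quantile normalization (0.102), and with plain limma settings (0.0723). SLC7A3, the related carrier CAT3, was listed at 0, 0 and 0.029 TPM in NEN libraries and at 0, 0.136 and 0 TPM in DMSO libraries. Exact zeros can be failed estimates in such files: GSS, the glutathione synthetase used by most cells, was also listed at 0 in all 3 DMSO libraries. No direction is drawn for SLC7A3.

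**Figure D3:**
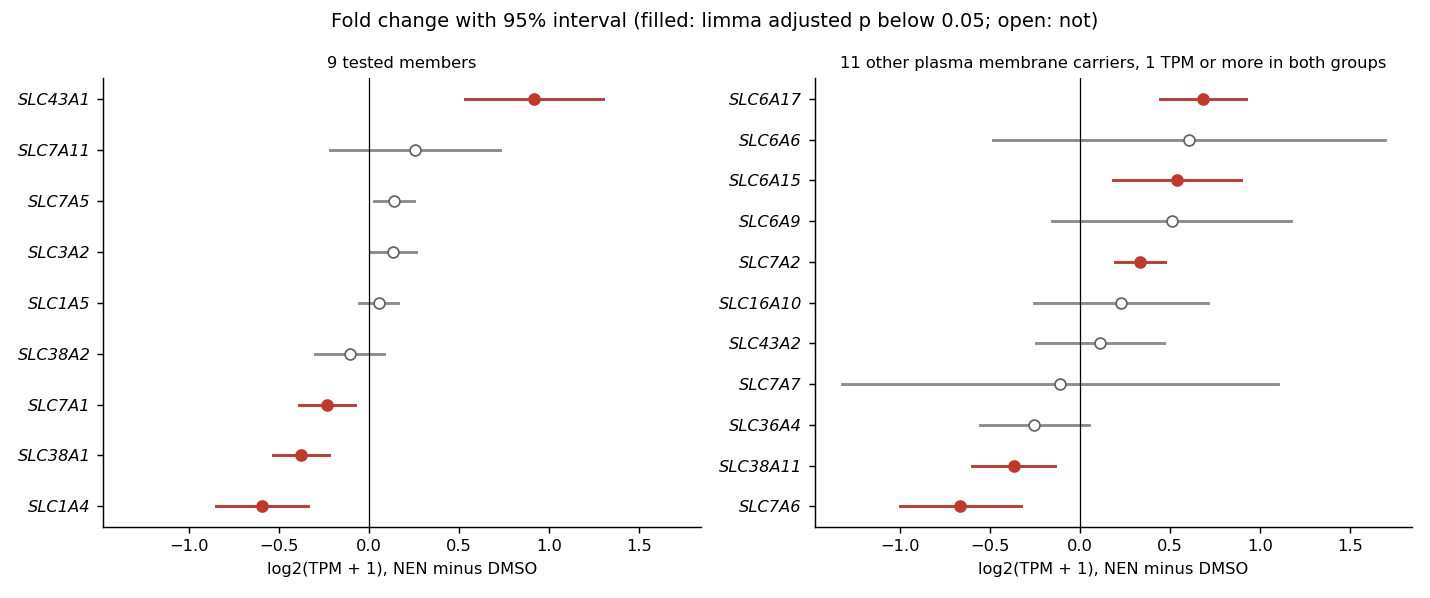
Fold change of log2(TPM + 1), NEN minus DMSO (horizontal axis), with its 95% interval for the 9 tested members (left) and the 11 other plasma membrane carriers with 1 TPM or more in both groups (right); filled points passed limma's adjusted p of 0.05. SLC43A1 is highest among the members at 0.92 and SLC1A4 lowest at -0.59. SLC6A17, known mainly from synaptic vesicles, and SLC7A6 mark the ends of the other list at 0.68 and -0.66.

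The members differed in level far more than treatment changed them. In NEN cells the order from high to low was SLC1A5, SLC7A5, SLC3A2, SLC38A1, SLC38A2, SLC7A1, SLC43A1, SLC1A4, SLC7A11 and SLC7A3. Of the neighbours in that order, SLC43A1 and SLC1A4 alone overlapped between their libraries. In DMSO cells SLC38A1 stood above SLC3A2 and SLC1A4 above SLC43A1, with overlap between SLC38A1 and SLC3A2 and between SLC38A2 and SLC7A1. The lowest SLC1A4 value in DMSO libraries, 12.3 TPM, was clear of the highest SLC43A1 value, 5.21 TPM. Summed over the 10 members, the level was 730.1, 709.3 and 709.1 TPM in NEN libraries, against 725.0, 735.4 and 714.7 TPM in DMSO libraries, and the groups overlapped. SLC1A5, SLC7A5 and SLC3A2 took 27.6%, 21.9% and 18.0% of that sum in NEN cells, against 26.2%, 19.6% and 16.2% in DMSO cells. SLC38A1 took 13.0% in NEN cells and 16.7% in DMSO cells.

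Among 33 other carriers listed for the plasma membrane, 21 lay under the level filter and 11 had a mean of 1 TPM or more in both groups. Of those 11, a selection made after the values were seen, 3 rose and 2 fell (45.5% called, beside 30.0% of all genes tested), with a median fold change of 0.23. The 30.0% covers genes averaging 1 TPM or more over both groups together, a looser filter, so these shares are not alike. Besides SLC7A6, the other fall was that of SLC38A11, with 27.4 ± 2.3 TPM in NEN cells and 35.6 ± 3.1 TPM in DMSO cells (-0.37 ± 0.10, adjusted p = 0.0288). SLC7A2, another cationic amino acid carrier, rose, while SLC7A1 fell. It had 79.8, 76.3 and 75.0 TPM in NEN libraries, against 62.3, 61.4 and 59.1 TPM in DMSO libraries (0.33 ± 0.06, adjusted p = 0.00633). The ratio of SLC7A1 to SLC7A2 was 0.713 ± 0.037 in NEN cells and 1.06 ± 0.04 in DMSO cells, while their sum was 131.9 ± 2.3 TPM in NEN cells and 125.6 ± 4.9 TPM in DMSO cells and overlapped between groups. SLC6A17, a neuronal carrier of neutral amino acids known mainly from synaptic vesicles, averaged 12.5 ± 0.6 TPM in NEN cells and 7.40 ± 0.29 TPM in DMSO cells (0.68 ± 0.10, adjusted p = 0.00343). SLC6A15, a neuronal carrier of proline and branched-chain amino acids, averaged 43.9 ± 5.1 TPM in NEN cells and 30.1 ± 6.1 TPM in DMSO cells (0.54 ± 0.15, adjusted p = 0.0337). SLC38A3, the glutamine carrier SNAT3, averaged 1.89 ± 0.23 TPM in NEN cells and 0.714 ± 0.023 TPM in DMSO cells. It passed the level filter only through its NEN level, so no call is given for it. The SLC38A11 call was lost without NEN replicate 2 or 3 or DMSO replicate 2 or 3 (adjusted p up to 0.0926). It was also lost with the replicate block (0.0745), without a filter (0.0593) and after correction for length and GC content (0.0655). The SLC6A15 call was lost without NEN replicate 1 or 3 or DMSO replicate 2 or 3 (up to 0.104). It was also lost without a filter (0.0771) and with plain limma settings (0.0589). The 21 carriers under the filter had means of at most 0.618 TPM.

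Of 10 carriers listed for lysosomes and other vesicles, 9 were tested, 0 rose and 2 fell (22.2% called, beside 30.0% of all genes tested), with a median of -0.08. This list also holds SLC29A3, a nucleoside carrier, which is not an amino acid transporter. PQLC2, the older symbol of SLC66A1, which exports cationic amino acids from lysosomes, averaged 20.3 ± 1.4 TPM in NEN cells and 26.5 ± 2.4 TPM in DMSO cells (-0.36 ± 0.10, adjusted p = 0.0305). SLC32A1, which loads GABA and glycine into synaptic vesicles, averaged 7.34 ± 0.47 TPM in NEN cells and 10.3 ± 0.7 TPM in DMSO cells (-0.44 ± 0.11, adjusted p = 0.0240). The PQLC2 call was lost in 8 of 15 alternatives. It was lost without NEN replicate 1 or 3 or DMSO replicate 1 or 3 (adjusted p up to 0.0980) and with the replicate block (0.0778). It was also lost without a filter (0.0598) and after median-ratio scaling (0.0504) or quantile normalization (0.0570). The SLC32A1 call was lost without NEN replicate 2 or 3 or DMSO replicate 1 or 3 (up to 0.0790) and with the replicate block (0.0558).

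Enzymes that use the carried amino acids moved both ways, with 7 of 18 tested rising and 5 falling (66.7% called, beside 30.0% of all genes tested) and a median of 0.22. CHAC1, which breaks down glutathione, averaged 18.9 ± 2.2 TPM in NEN cells and 6.76 ± 0.80 TPM in DMSO cells (1.36 ± 0.13, adjusted p = 0.000778). GCLM, a subunit of the enzyme that starts glutathione synthesis from cysteine, fell to 9.21 ± 1.79 TPM in NEN cells, against 20.1 ± 2.0 TPM in DMSO cells (adjusted p = 0.00302). Of the transaminases of branched-chain amino acids, mitochondrial BCAT2 rose by 0.62 ± 0.08 (adjusted p = 0.00241) and cytosolic BCAT1 fell by 0.42 ± 0.06 (adjusted p = 0.00222). ASNS, which makes asparagine from glutamine, rose by 0.48 ± 0.10 and GOT1, the cytosolic aspartate transaminase, by 0.27 ± 0.06 (adjusted p = 0.00901 and 0.0131). CBS, which makes cystathionine on the way to cysteine, fell by 0.32 ± 0.05, and PSAT1, a serine synthesis enzyme, fell by 0.41 ± 0.07 (adjusted p = 0.00525 and 0.00527). The GOT1 call was lost without NEN replicate 1 (adjusted p = 0.0503).

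Of 11 factors known to act on genes of this family, 10 were tested, of which 5 rose and 1 fell (6 of 10 called, beside 30.0% of all genes tested), with a median of 0.19. DDIT3 and TRIB3, which are targets and modulators of ATF4, rose by 1.70 ± 0.13 and 1.61 ± 0.09 (adjusted p = 0.000332 and 0.000215). KEAP1, which marks NRF2 for breakdown, fell by 0.57 ± 0.09 (adjusted p = 0.00464). MYCN rose by 0.33 ± 0.08 (adjusted p = 0.0169) and CEBPG, a dimer partner of ATF4, by 0.28 ± 0.08 (adjusted p = 0.0432). CEBPG lost its call on leaving out any 1 library, with adjusted p up to 0.132, and MYCN without NEN replicate 1 (0.0632) or with plain limma settings (0.0503). ATF4 mRNA, named after its values were seen, had 376.7, 374.5 and 363.2 TPM in NEN libraries, against 352.2, 348.2 and 337.2 TPM in DMSO libraries. Its NEN libraries lay above the DMSO libraries, with a fold change of 0.10 ± 0.05 that did not pass the test (adjusted p = 0.138). mRNA does not give the amount of the ATF4 protein, which is controlled mainly in translation.

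**Figure D4:**
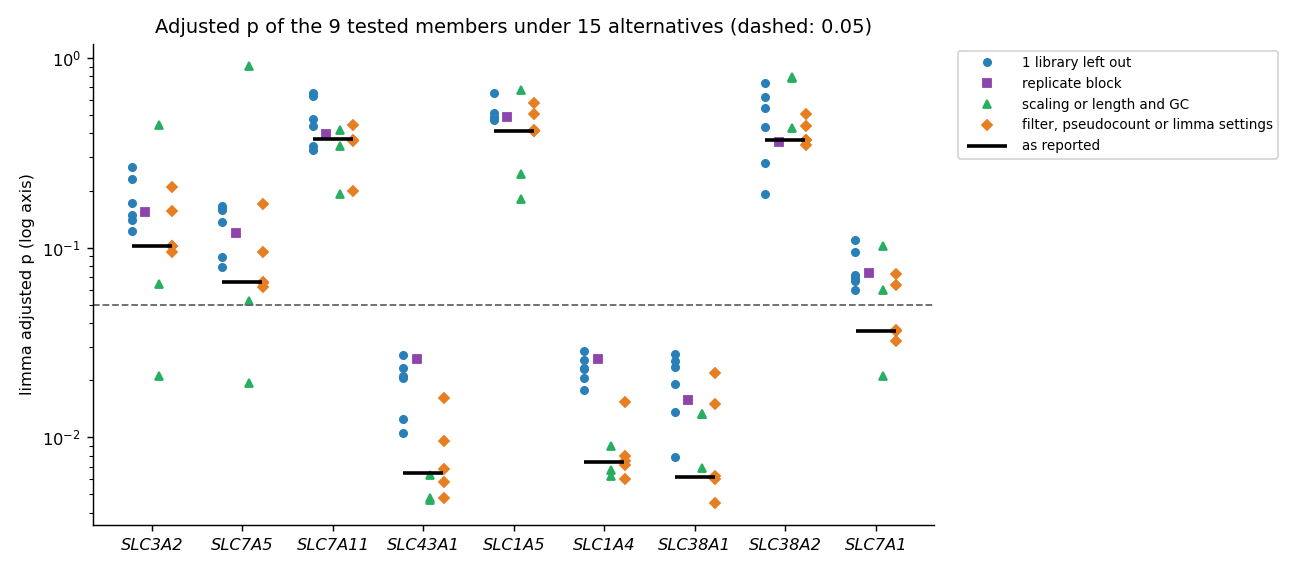
Adjusted p from limma (vertical log axis) for the 9 tested members as reported (black bars) and under 15 alternatives, by kind of alternative, with a dashed line at 0.05. SLC43A1, SLC1A4 and SLC38A1 lie under the line in every case, SLC7A1 crosses it in 11, and SLC7A5 and SLC3A2 lie under it in 1 case each.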

How the data were processed

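The 6 RNA-seq libraries came from the line SK-N-BE(2), 3 with 1 µM NEN and 3 with DMSO for 24 h, grouped by the treatment label. Per the labels' protocols, Trizol was used to extract RNA; polyA capture and rRNA removal are both named for the libraries, and which was used is unclear. Kallisto and hg19 are named in the submitters' processing notes; no label states the version, the annotation or the step from transcripts to genes. Each deposited file lists TPM per gene name, computed by the authors; the header names no unit, which was read from the values and the tool. They hold no counts, so no counting intervals are given, and precision comes from the 3 libraries per group. No 2 libraries held identical values, and log2 values correlated at 0.976 to 0.983 within groups and 0.955 to 0.965 between them, across genes. Of the names, 27 look like dates and 2 are repeated.

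The 12576 genes that averaged 1 TPM or more were put on the log2(TPM + 1) scale (pseudocount 1) and fitted with limma 3.58.1 in R 4.3.3 (group alone, trend and robust settings, two-sided, Benjamini-Hochberg over all genes, threshold 0.05). The fit was tested on simulated data with independent normal noise and no scaling difference between libraries, so that test does not bear on the choice of scaling. Members, lists and tests were chosen with earlier results of these data known, so no list was tested as a set and no p is adjusted over a list alone. Named genes are the 10 members, up to 8 called genes of each other list by adjusted p, and the 5 nearest to the most changed member; ATF4, SLC43A2, GSS, SLC29A3, the near copies and the cell markers were added after values were seen. Of the list symbols, 1 was found under an older symbol. Not every gene that the rule names is reported here. Alternatives were a replicate block, each library left out, no filter or 5 TPM, median-ratio scaling, quantile normalization, plain limma settings and pseudocounts of 0.1 and 5. Added after seeing the data were a count of the other carriers without SLC38A3, which is under 1 TPM in DMSO cells, and a loess correction (span 0.3, degree 1) for GC content and length of transcripts (11301 genes, GENCODE release 29 medians over protein-coding transcripts). Promoters and their coordinates are RefSeq, GRCh38.p14, a different build from that of the files. Figures used matplotlib 3.10.9 in Python 3.11.15.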

Additional observations from a re-analysis of the deposited data

How the results depend on the processing

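Over 15 alternatives for each of the 9 tested members (14 for SLC7A11, which is under the 5 TPM filter), 119 values kept their direction and their side of the threshold, 11 lost a call, all of them for SLC7A1, 2 gained one and 2 changed sign. The changes of sign were SLC1A5 at -0.026 and SLC38A2 at 0.024, both after correction for length and GC content. With quantile normalization 3 members rose instead of 1. The scaling alternatives moved the median fold change of all genes to -0.002 (median-ratio) and -0.003 (quantile), from -0.025. For the other plasma membrane carriers, 12 tested with SLC38A3, 1 instead of 2 fell with the replicate block, with no filter and with length and GC correction. Their rises are not counted here, since SLC38A3 passed the level filter only through its NEN level. For the lysosomal list 1 rose with length and GC correction, 0 fell with the replicate block and 1 fell with no filter, median-ratio scaling or quantile normalization. Of the factors, 3 instead of 5 rose with no filter.

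Leaving out each library in turn, 1 member rose and 2 fell in every case. Over all genes 1063 (without NEN replicate 1) to 1554 rose and 1402 to 1914 fell. Of the other carriers 2 to 3 rose and 1 to 2 fell, of the lysosomal list 0 to 1 rose and 0 to 2 fell, of the enzymes 4 to 6 rose and 4 to 5 fell, and of the factors 3 to 4 rose and 1 fell. The ratio of the 6 light chains to SLC3A2 differed by -0.184 to -0.131 between NEN and DMSO cells, that of SLC7A5 by -0.007 to 0.027 and that of SLC7A11 by 0.0009 to 0.0043. With the replicate block 1328 genes rose and 1649 fell, beside 1699 and 2074 without it. Deviations of same-numbered libraries from their group means correlated at 0.012, -0.008 and -0.028, and not every library correlated best with its own number. These values show no pairing by number, though 3 libraries per group cannot exclude one. Depth is unknown, so the counting error of low values such as those of SLC7A11 and SLC7A3 cannot be given.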
